A study of Mus musculus with 20 samples.

Results

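The kidney libraries of this mouse RNA-seq series were set against those of every other organ sequenced with them. The organ named in the sample labels decided membership, so that 4 of the 20 libraries were kidney libraries, and the remaining 16 came from small intestine, liver, spleen and heart with 4 libraries each. Each organ had 2 libraries of WT mice and 2 libraries of Nsun6 knockout (KO) mice. Nsun6 encodes a methyltransferase that places 5-methylcytosine on RNA. The KO strain was made by CRISPR/Cas9 in fertilized eggs of C57BL/6J, with exons 3 and 4 of Nsun6 deleted, and per the methods of the study the organs came from 8-week-old females. Libraries were made from RNA of frozen and ground tissue with a stranded mRNA kit, and the part of each organ that was taken was not stated. Per the text of the study the 2 replicates of a group are biological, and it was not stated whether organs labelled with the same replicate number came from the same mouse. The kidney libraries held 25988075 (WT 1), 25327492 (WT 2), 25220170 (KO 1) and 24772312 (KO 2) counts, and those of the other organs between 15897446 and 44508197.

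The nephron is the working unit of the kidney. Blood is filtered through the slit diaphragm of the podocytes, and the proximal tubule then takes back glucose, phosphate, amino acids and bicarbonate and secretes organic anions and cations. The thin limb and thick ascending limb build the salt gradient of the medulla, the distal convoluted tubule and connecting tubule adjust sodium, calcium and magnesium, and the collecting duct adjusts water in its principal cells and acid in its intercalated cells. Each of these segments is known by its own transporters, channels and enzymes. In bulk RNA, fewer cells of a type and less RNA per cell cannot be told apart.

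The labels were checked first. Nsun6 had 189 and 141 counts in the WT kidney libraries and 111 and 93 in the KO kidney libraries, or 1.09, 1.17, 0.781 and 0.663 RPKM (reads divided by merged exon length and TMM-scaled library size). Both KO values lay below both WT values in kidney, a pattern seen in 9.48% of all genes tested, and likewise in liver and heart. They overlapped in spleen, with 0.804 and 1.33 RPKM in KO and 1.21 and 0.871 in WT, and in small intestine, with 1.93 and 1.05 in KO and 1.96 and 1.24 in WT. The count covers the whole gene, of which only a part was deleted. The kidney label was checked with 3 marker genes. Kap encodes the kidney androgen-regulated protein of the proximal tubule (chr6:133849851-133853762, minus strand, GRCm38). It was at 21300, 55220, 36940 and 46870 RPKM in kidney WT 1, WT 2, KO 1 and KO 2, an order kept for all values below, and took 2.01 to 3.75% of all counts there. Umod encodes uromodulin, the main protein of normal urine and a product of the thick ascending limb (chr7:119462711-119479282, minus strand), and was at 326, 672, 843 and 677 RPKM. Slc34a1, the main sodium-phosphate cotransporter of the proximal tubule (chr13:55398187-55415592, plus strand), was at 898, 111, 586 and 325 RPKM. For each of the 3 genes every kidney library lay above all 16 others, a pattern seen in 5.54% of all genes tested. The highest means of another organ were 12.3, 0.125 and 0.348 RPKM for Kap, Umod and Slc34a1, all in spleen.

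**Figure D1:**
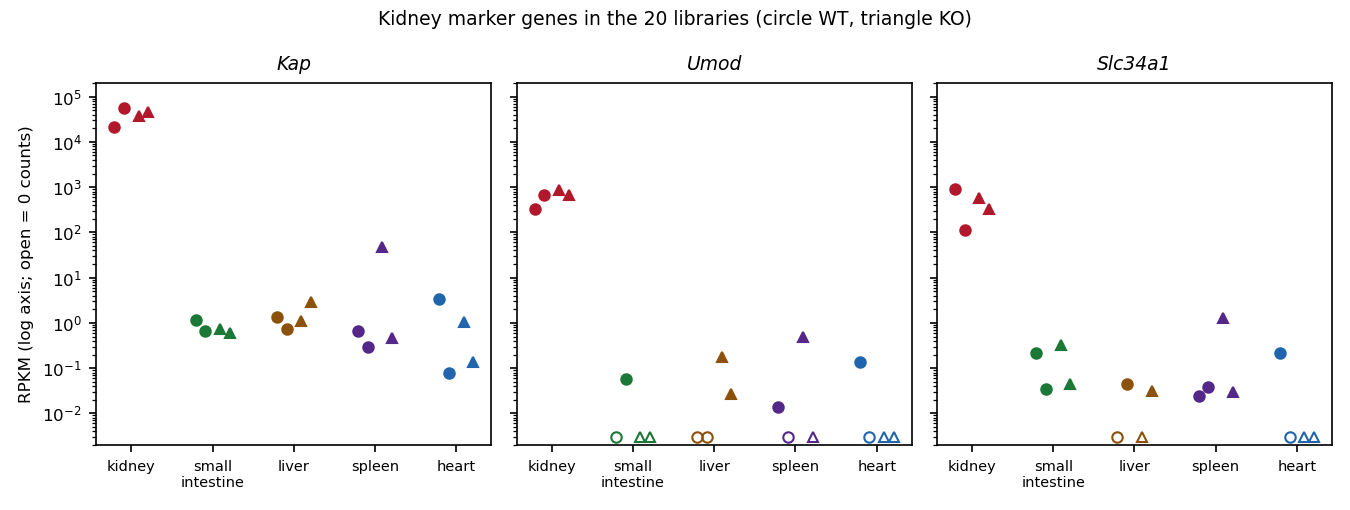
RPKM (log axis) of Kap, Umod and Slc34a1 in each of the 20 libraries by organ, with circles for WT, triangles for KO and open symbols for libraries with 0 counts. The kidney libraries lie above all others, and spleen KO 1 (47.9 RPKM of Kap) stands above the rest of the spleen libraries.

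Some libraries stood apart. In spleen KO 1, Kap was at 47.9 RPKM, against 0.6504, 0.295 and 0.466 in spleen WT 1, WT 2 and KO 2. Miox, another kidney gene, was at 2.25 RPKM in spleen KO 1 and at 0.0633 or less in the other spleen libraries. Over the 52 kidney-restricted genes (defined below) with a kidney mean of 100 RPKM or more, the median level in spleen KO 1 was 0.207% of the kidney mean, while it lay between 0.00496 and 0.0571% in the other 15 libraries outside the kidney. Spleen WT 2 stood apart by liver genes. Over 200 genes of the liver its median was 1.26% of the liver mean, against 0.115% or less in the other libraries outside the liver. Without both spleen libraries the ratio to the highest other organ moved by over 1.5 times in 14 of 71 named genes called higher, and such values are given below beside the ratios printed. Without both, 781 genes were higher in kidney than in each other organ, 770 of them shared with the 951 called in all libraries.

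In small intestine the libraries numbered 1 stood apart from those numbered 2. Of 14127 genes tested with at least 1 RPKM there, 518 (3.67%) had both libraries of one number at least 5-fold above both of the other, against 0.167 to 0.694% in kidney, liver, spleen and heart. Where a named gene differed in this way by over 3-fold, the values of small intestine WT 1, WT 2, KO 1 and KO 2 are given in parentheses wherever its small intestine mean is printed. The cause was not tested. Without small intestine WT 1 and KO 1, 992 genes were higher in kidney than in each other organ, 872 of them shared with the 951, and without WT 2 and KO 2, 955, of which 851 were shared.

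Kidney WT 2 stood apart from the other kidney libraries by base composition. Of the genes expressed in kidney, 11489 were put into 5 equal bins by the GC content of their longest transcript. The median level in WT 2 relative to the kidney mean was 0.356 (log2) in bin 1 (31 to 43.5% GC) and -0.688 in bin 5 (54.9 to 73.7% GC). The medians of these bins were -0.13 and 0.297 in WT 1, -0.151 and 0.352 in KO 1, and -0.038 and 0.1 in KO 2. Among kidney-restricted genes, the 71 with a GC content of 55% or more differed in WT 2 from the mean of the other 3 libraries by a median log2 of -1.504, and the 102 genes under 45% by 0.407. Single genes of like GC content differed. Slc34a1 (54.7% GC) was low in WT 2, with a log2 of -2.44 from the mean of the other 3, while Ren1 (54.6%), Miox (54.5%) and Gpx3 (56%) were at 0.96, 0.25 and 0.14. The part of GC content in the value of any single gene was not tested. The rank correlation of transcript length with level relative to the kidney mean was 0.343, -0.275, -0.087 and 0.146. In heart such correlations ran from -0.501 to 0.519. Kidney WT 1 also stood apart, by level. Over the 52 kidney-restricted genes with a kidney mean of 100 RPKM or more, the median was 72.2, 129, 102 and 98.4% of that mean. The causes of these differences were not tested. Without kidney WT 2, 822 genes were higher in kidney than in each other organ, 766 of them shared with all libraries.

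**Figure D2:**
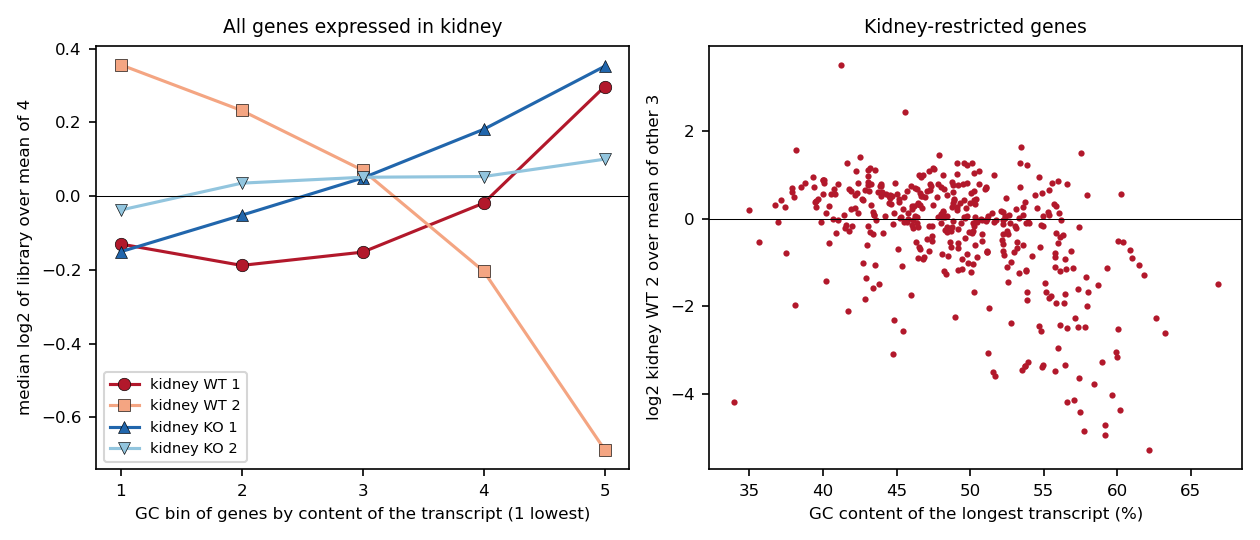
Left, median log2 ratio of each kidney library to the kidney mean for 11489 genes in 5 bins of transcript GC content. Right, log2 ratio of kidney WT 2 to the mean of the other 3 kidney libraries for each of the 399 kidney-restricted genes against GC content. WT 2 falls from 0.356 in bin 1 to -0.688 in bin 5.

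The starts of the 3 marker genes and of Miox are shown, because these 4 genes carry the check of the labels and of the libraries above. Each window runs from 250 bases before to 50 after the annotated start site (RefSeq, GRCm38.p6) and is read 5′ to 3′ on the strand of the gene. Capitals mark TATAAA, the TATA box, searched on both strands. The windows are chr6:133853618-133853917 (minus strand) for Kap, chr7:119479213-119479512 (minus strand) for Umod, chr13:55399398-55399697 (plus strand) for Slc34a1 and chr15:89334223-89334522 (plus strand) for Miox, which encodes myo-inositol oxygenase.
Kap: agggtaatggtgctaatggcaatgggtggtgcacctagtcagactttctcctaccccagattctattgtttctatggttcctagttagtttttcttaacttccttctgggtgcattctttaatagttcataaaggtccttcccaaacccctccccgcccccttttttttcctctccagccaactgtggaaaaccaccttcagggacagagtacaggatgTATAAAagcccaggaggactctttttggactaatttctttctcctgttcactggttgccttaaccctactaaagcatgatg
Umod: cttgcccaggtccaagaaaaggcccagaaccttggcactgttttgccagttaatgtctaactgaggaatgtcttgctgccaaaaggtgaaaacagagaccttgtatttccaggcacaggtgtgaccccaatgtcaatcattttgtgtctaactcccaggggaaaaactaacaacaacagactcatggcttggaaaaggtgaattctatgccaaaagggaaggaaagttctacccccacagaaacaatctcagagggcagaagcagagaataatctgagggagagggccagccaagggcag
Slc34a1: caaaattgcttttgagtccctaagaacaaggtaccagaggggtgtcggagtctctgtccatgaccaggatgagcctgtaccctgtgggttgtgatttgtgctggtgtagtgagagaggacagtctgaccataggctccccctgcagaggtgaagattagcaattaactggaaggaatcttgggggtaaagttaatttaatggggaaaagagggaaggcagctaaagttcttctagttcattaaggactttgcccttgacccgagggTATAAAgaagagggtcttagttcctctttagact
Miox: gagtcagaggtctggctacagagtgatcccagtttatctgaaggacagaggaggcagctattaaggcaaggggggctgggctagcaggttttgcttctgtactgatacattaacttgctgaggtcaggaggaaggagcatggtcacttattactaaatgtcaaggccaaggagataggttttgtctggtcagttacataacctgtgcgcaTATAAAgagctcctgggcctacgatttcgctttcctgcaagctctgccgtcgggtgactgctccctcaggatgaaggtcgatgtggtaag
In Kap TATAAA began at position -31 from the start site, in Miox at -40 and in Slc34a1 at 16, after the start. The window of Umod did not hold these letters. These positions hold for the RefSeq start sites, which differ from the gene bounds given above for the marker genes. The window of Slc34a1 lies wholly inside those bounds, which begin at 55398187. Windows were found for 264 of the 399 kidney-restricted genes, 320 windows in all, since a gene can have several. TATAAA was in 12.5% of them, in 9.37% of the 18580 windows of all genes tested and in 13.6% of all 32851 windows. CAAAGTCCA, known as a site of the HNF4 factors, was in 0.312%, 0.549% and 0.475% in the same order. TCAAGGTCA, the half-site of the ESRR factors, was in 0 of the 320 windows and in 0.285% of those of all genes tested. These are matches of letters only, and both strands were searched.

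Of 55401 genes, 23159 passed the filter on low counts and were tested. A gene was called higher in kidney when it was over 2-fold higher than in each of small intestine, liver, spleen and heart and the largest of the 4 p-values of edgeR's quasi-likelihood test was under 0.1 after Benjamini-Hochberg adjustment. By this rule 951 genes (4.11%) were higher in kidney than in each other organ, and 154 (0.665%) were lower than in each. In 906 of the 951 every kidney library lay above all 16 others, a pattern seen in 5.54% of all genes tested. Against the mean of the 4 other organs, 4710 genes (20.3%) were higher and 2456 (10.6%) lower. The organ nearest to kidney among the 951 was small intestine for 282 genes, heart for 269, spleen for 231 and liver for 169. Against single organs, 22.6% of the genes tested were higher and 23.2% lower in kidney than in small intestine, 21.1 and 13.6% than in liver, 26.4 and 24.1% than in spleen, and 19.9 and 18.1% than in heart.

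Kidney-restricted genes were defined by their values, and the definition carries no test of its own. They were called higher, had a kidney mean of at least 1 RPKM, and had a kidney mean at least 10 times that of the highest other organ. There were 399 such genes. An organ with fewer than 3 counts over its 4 libraries was set to that floor. In 75 of the 399 genes every other organ was at or under it, and their ratios are given as "at least". By ratio, Gm15823 (10.1-fold) was just inside and Ptpn13 (9.98-fold) just outside. By level, Haglr (1 RPKM) was just inside and A930017K11Rik (0.983 RPKM) just outside. The 399 genes took 11.9, 13.4, 13.8 and 14.1% of the counts of the kidney libraries and 0.098% or less of those of any other library.

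**Figure D3:**
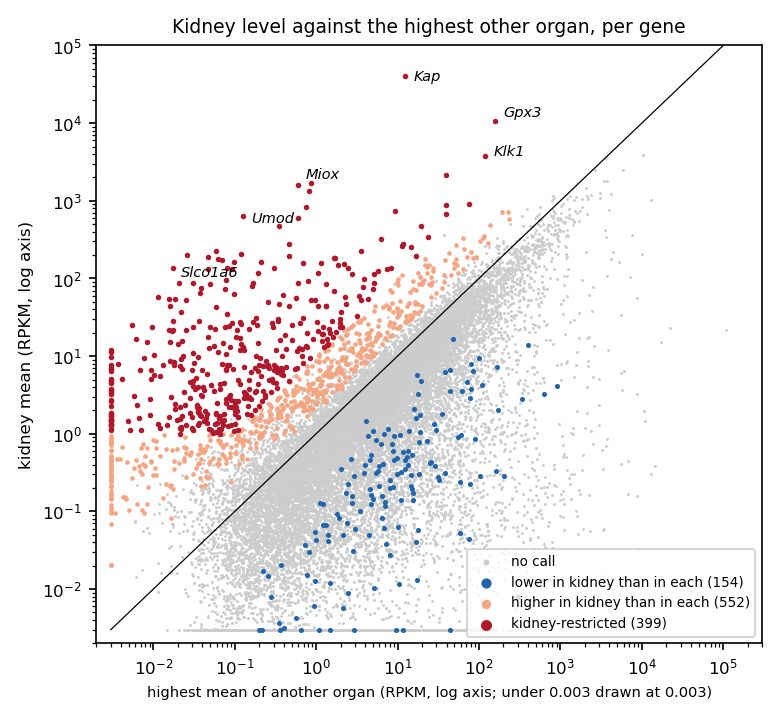
Kidney mean against the highest mean of another organ (RPKM, log axes) for each gene, with the diagonal of equal levels. The 399 kidney-restricted genes (dark red) lie far above the diagonal, other genes called higher in orange nearer to it, and the 154 genes lower in kidney than in each organ (blue) below it.

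The most abundant kidney-restricted gene after Kap was Gpx3, the secreted plasma glutathione peroxidase. Gpx3 was at 7027, 11440, 11910 and 12240 RPKM, with heart next at 156 RPKM, a difference of 6.09 ± 0.50 (log2, SE, adjusted p = 4.04e-06). WT 1 was the lowest of its kidney libraries. Klk1, tissue kallikrein of the connecting tubule, was at 2408, 4830, 4561 and 3518 RPKM, 32.1-fold above small intestine. Other genes of the Klk1 family were kidney-restricted too, and reads may be split between close copies, so the values of Klk1 are uncertain. Spp1 (osteopontin) had a kidney mean of 2126 ± 700 RPKM (SD, n = 4), 53.3-fold above liver. Cltrn encodes collectrin, a partner of amino acid transporters in the brush border. It had a mean of 1716 ± 454 RPKM, 1957-fold above spleen and, without spleen WT 2 and KO 1, 3514-fold above small intestine, and spleen KO 1, with 2.65 RPKM, was the highest of the spleen libraries. Of the exonic bases of Spp1, 18.8% are shared with Gm42793 on the same strand.

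Miox, the first enzyme of inositol breakdown, was at 1287, 1830, 1928 and 1397 RPKM, 2715-fold above spleen and, without spleen WT 2 and KO 1, 4986-fold above liver, with most of the spleen mean coming from KO 1. Akr1c21, an aldo-keto reductase that acts on steroids, was at 1157, 2016, 1121 and 1095 RPKM, with WT 2 above the other 3 libraries. Aadat, an aminotransferase of kynurenine and lysine breakdown, was at 398, 1187, 922 and 1120 RPKM, 12.01-fold above liver (adjusted p = 0.0186). Gsta2, a glutathione S-transferase, had a mean of 888 ± 271 RPKM, 22.2-fold above liver (35.9-fold without liver WT 1) (adjusted p = 0.0338), and Fxyd2, the gamma subunit of the sodium pump, 830.2 ± 293 RPKM, 1110-fold above spleen. Gsta2 lost its call in 7 of 36 alternatives, among them without kidney WT 2 and without each single liver library, and Aadat in 4, among them without liver WT 1, KO 1 or KO 2. Akr1c21 and Gsta2 belong to families with close copies, so reads may be split between members and their values are uncertain.

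The 5 largest ratios to the highest other organ belonged to Slco1a6, Slc7a12, Umod, Slc22a22 and Slc22a19. This order depends on the spleen libraries. Without spleen WT 2 and KO 1 the 5 largest were Slc12a1 (30670-fold, against 3880-fold with all libraries), Kap (26490 against 3249), Slc22a8 (14310 against 1683), Slco1a6 (13000 against 7733) and Umod (12450 against 5039). Slco1a6, an organic anion transporter, was at 104, 178, 122 and 136 RPKM, 7733-fold above spleen and, without spleen WT 2 and KO 1, 13000-fold above liver. Slc7a12, an amino acid transporter, was at 147, 231, 161 and 265 RPKM, 7688-fold above spleen. Umod was 5039-fold above spleen and, without spleen WT 2 and KO 1, 12450-fold above liver. Slc22a22, an organic anion carrier, was at 47.1, 87.3, 49.1 and 45.6 RPKM, at least 4284-fold higher than in any other organ. Slc22a19, of the same family, was at 22.7, 130.3, 83.6 and 114 RPKM, 4187-fold above spleen, with its lowest value in WT 1. Spleen KO 1 was the highest spleen library for 4 of the 5 genes, with 59 counts of Umod, 20 of Slc22a19, 10 of Slco1a6 and 8 of Slc7a12, and the other 3 spleen libraries had 0 to 2 counts of each. Slc22a22 had 0 counts in every spleen library. Without both spleen libraries the fitted difference from the nearest organ was 14.76 (log2) for Kap, against 13.51 with all libraries, and 15.63 for Umod, against 13.65.

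The nephron segments were described with 9 lists of genes, 118 symbols in all. The share called higher ran from 1 of 10 in the renin cell and vessel list to 13 of 15 in the thick ascending limb, beside 4.11% of all genes tested. The median difference from the highest other organ is given for each list beside -1.22 (log2), the median over all 23159 genes. None of the listed genes was called lower in kidney than in each other organ.

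Podocyte genes gave 3 of 14 called, with a median difference of -0.0843 (log2). Nphs1 (nephrin), the adhesion protein of the slit diaphragm, was at 3.13, 0.588, 2.22 and 1.47 RPKM, 51.3-fold above spleen. Rhpn1 was at 7.995, 0.7504, 6.51 and 4.39 RPKM, 32.9-fold above spleen. Both genes were lowest in WT 2. Synpo, an actin-binding protein of foot processes, was at 3.92 ± 1.58 RPKM in kidney and 19.1 in small intestine.

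Of the early proximal tubule list, 9 of 17 were called, with a median of 3.42 (log2). Slc34a1 led by level, 1379-fold above spleen and, without spleen WT 2 and KO 1, 3091-fold above small intestine, with a difference of 11.58 ± 1.72 (log2) from the nearest organ of the fit (adjusted p = 0.00124), and its WT libraries lay on either side of its KO libraries. Gatm, the first enzyme of creatine synthesis, was at 249.8, 232, 289 and 325 RPKM, 23.8-fold above spleen. Slc22a8, the basolateral organic anion transporter OAT3, was at 152, 125, 181 and 90.5 RPKM, 1683-fold above spleen and, without spleen WT 2 and KO 1, 14310-fold above heart. Lrp2 (megalin), the endocytic receptor for filtered protein, was at 82.1, 150.2, 135 and 158 RPKM, 1432-fold above heart. Without small intestine WT 1 and KO 1, 10 members were called, and without WT 2 and KO 2, 11. Slc6a19 and Slc2a2 were not called. Slc6a19, a neutral amino acid transporter, was at 47.2 ± 12.8 RPKM in kidney and 209.8 in small intestine, and Slc2a2, the glucose carrier GLUT2, at 37.8 ± 9.305 RPKM against 121 (0.954, 234, 4.38 and 243) in small intestine and 98.4 in liver. The kidney values of Slc2a2 lay above small intestine WT 1 and KO 1 and below WT 2 and KO 2.

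The late proximal tubule list had 12 of 16 called and a median of 3.17 (log2). Kap led it, followed by Napsa, Slc7a12 and Slc6a18. Napsa, an aspartic protease, was at 179.8, 314, 501 and 379 RPKM, 14.5-fold above spleen, where all 4 libraries had 19.8 to 27.3 RPKM. Slc6a18, an amino acid transporter, was at 208, 125, 198 and 194 RPKM, 105-fold above small intestine, 352-fold without small intestine WT 1 and KO 1 and 61.7-fold without WT 2 and KO 2. Slc22a30 and Cyp7b1 were not called and had higher means in liver, with Slc22a30, an organic anion carrier, at 6.81 ± 1.497 RPKM in kidney and 148 in liver, and Cyp7b1, an oxysterol hydroxylase, at 1.86 ± 1.29 against 18.4. Summed over the 12 called genes, which Kap dominates, the list was at 22020, 56230, 38250 and 48120 RPKM, lowest in WT 1 and highest in WT 2. Without kidney WT 2, 8 of the 12 stayed called, and Slc7a13, Atp11a, Bcat1 and Acy3 did not. Slc7a13, an aspartate and glutamate carrier, was at 0.323, 6.03, 0.526 and 0.6997 RPKM, so that its mean rests on WT 2, and lost its call in 15 of 36 alternatives. Without both spleen libraries 10 stayed called.

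The thin limb list gave 2 of 7, with a median of -1.22 (log2). Slc14a2, the urea transporter UT-A, was at 2.67, 3.16, 6.26 and 6.79 RPKM, 155-fold above spleen. Cryab, a small heat shock protein abundant in striated muscle, was at 83.1 ± 37.1 RPKM in kidney and 1110 in heart. Bst1, an ectoenzyme of NAD metabolism, was at 3.67 ± 0.7303 RPKM in kidney and 46.99 (8.53, 44.9, 12.3 and 122) in small intestine.

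The thick ascending limb had 13 of 15 called, 12 of them kidney-restricted, and a median of 7.21 (log2). Umod, Slc12a1, Kcnj1 and Cldn10 were the most abundant. Slc12a1, the sodium-potassium-chloride cotransporter NKCC2 that loop diuretics block, was at 208, 219, 234 and 247 RPKM, a mean of 227 ± 16.9 (SD, n = 4), and differed from spleen by 13.27 ± 1.28 (log2, adjusted p = 8.69e-05), and from the nearest organ by 14.56 without spleen WT 2 and KO 1. Its 4 kidney libraries lay close together. Kcnj1, the potassium channel ROMK, was at 179.6, 230.4, 197 and 169 RPKM, 419.9-fold above spleen. Cldn10 and Cldn16, claudins of the cation path through the tight junction, were at 69.2, 175, 114 and 117 and at 15.96, 28.7, 23.7 and 26.97 RPKM. The 2 genes not called were Foxq1, a forkhead factor, at 1.67 ± 0.842 RPKM in kidney against 5.72 (0.168, 11.8, 0.2696 and 10.6) in small intestine, and Nos1, the neuronal nitric oxide synthase of the macula densa, at 0.0657 ± 0.0534 RPKM against 0.102 in spleen. Foxq1 shares 66.1% of its exonic bases with A530084C06Rik on the opposite strand.

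In the distal convoluted tubule list 6 of 8 genes were called, with a median of 4.66 (log2). Slc12a3, the thiazide-sensitive sodium-chloride cotransporter, was at 326, 20.3, 157 and 148 RPKM, 784-fold above spleen (521-fold without kidney WT 1). Wnk4, a kinase that regulates it, was at 68.1, 4.34, 36.5 and 22.8 RPKM, 10.3-fold above heart (6.62-fold without kidney WT 1). Both were far lower in WT 2 than in the other kidney libraries, and the WT 2 value of Wnk4 lay below the highest heart library. Tmem52b at 136, 161, 111 and 121 RPKM and the calcium buffer Pvalb at 34.7, 63.5, 67.9 and 46.9 were not low in WT 2. The magnesium channel Trpm6 was at 3.88 ± 0.615 RPKM in kidney and 3.81 (8.43, 0.0411, 6.71 and 0.0481) in small intestine, and Cnnm2, also of magnesium handling, at 3.28 ± 0.594 against 1.83 (0.394, 2.62, 0.393 and 3.91). Trpm6 was called without small intestine WT 1 and KO 1, and Cnnm2 without WT 2 and KO 2.

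Of the connecting tubule and principal cell list, 12 of 15 were called, with a median of 4.09 (log2). After Klk1, Calb1 (calbindin, a calcium buffer) was at 210, 241, 177 and 191 RPKM, 1696-fold above spleen and, without spleen WT 2 and KO 1, 5773-fold above heart. Aqp2, the water channel under vasopressin control, was at 81.4, 15.02, 119 and 74.7 RPKM, 953-fold above spleen and, without spleen WT 2 and KO 1, 2067-fold above heart, lowest in WT 2. Aqp3, the exit channel for water, was at 40.3, 24.7, 55.1 and 41.8 RPKM, 5.12-fold above small intestine, 2.92-fold without small intestine WT 1 and KO 1 and 20.5-fold without WT 2 and KO 2 (adjusted p = 0.0818). The call of Aqp3 was lost in 20 of 36 alternatives, and that of Aqp4 and Elf5 also went without kidney WT 2, leaving 9 called genes. S100g, another calcium buffer, was not called, at 3886 ± 1748 RPKM in kidney and 10430 (97.8, 29120, 245 and 12240) in small intestine. S100g was called without small intestine WT 2 and KO 2, where it was high. Avpr2, the vasopressin receptor of principal cells, was at 0.123 ± 0.0963 RPKM in kidney and 2.401 in spleen. Of its exonic bases 81.3% are shared with Arhgap4 on the opposite strand, and reads of the pair may not have been told apart.

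The intercalated cell list had 12 of 16 called, 11 of them kidney-restricted, and a median of 7.59 (log2). Subunits of the proton pump were among the most abundant, with Atp6v1g3 at 64.8, 109, 59.8 and 71.8 RPKM and Atp6v0a4 at 47.7, 69.6, 65.5 and 63.6. Atp6v1b1, another subunit, was at 32.4, 17.7, 27.7 and 24.4 RPKM, at least 3429-fold higher than in any other organ. The ammonia channel Rhcg was at 49.8, 12.8, 49.1 and 35.7 RPKM, 1681-fold above small intestine, lowest in WT 2. Slc4a1, a chloride-bicarbonate exchanger that is also band 3 of red cells, was at 4.48 ± 1.03 RPKM in kidney and 90.9 in spleen. Rhbg, a relative of Rhcg, was at 1.701 ± 0.856 RPKM in kidney and 1.301 in small intestine, and shares 61.4% of its exonic bases with Gm38392 on the same strand.

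Of the renin cell and vessel list 1 of 10 was called, with a median of -0.71 (log2). This was Ren1 (renin), at 12.2, 41.6, 27.99 and 23.7 RPKM, 287-fold above spleen. The other 9, mostly endothelial and mural genes, were not. Pecam1, an adhesion molecule of endothelium, was at 10.6 ± 4.96 RPKM in kidney and 39.1 in heart, and Akr1b7, an aldo-keto reductase, at 1.62 ± 1.08 against 70.05 in small intestine.

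**Figure D4:**
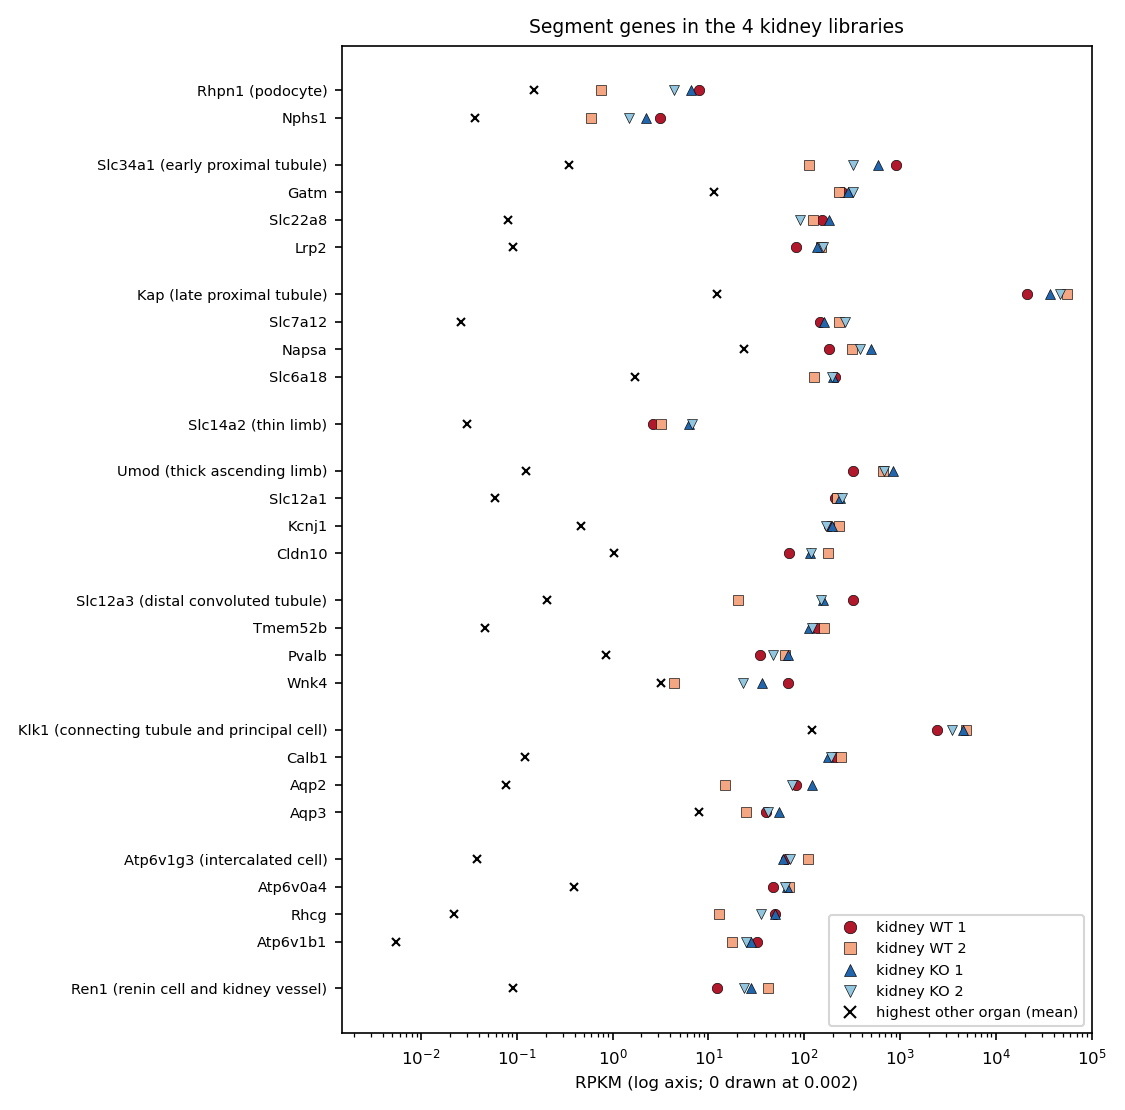
RPKM (log axis) of 28 abundant called genes of the segments in the 4 kidney libraries (coloured symbols), with the highest mean of another organ as a cross. Kidney WT 2 (squares) is far to the left for Slc12a3 (20.3 RPKM) and Wnk4 (4.34 RPKM), and close to the others for Slc12a1 (219 RPKM).

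Across the solute carriers (SLC genes), 360 were tested, 45 (12.5%) were called higher and 2 lower, beside 4.11% and 0.665% of all genes tested. The SLC22 family of organic anion and cation carriers gave 14 of its 24 tested genes, and no other SLC family gave more than 3. The mitochondrial carriers (SLC25) gave 0 of 45, the SLC2 glucose carriers 0 of 12 and the SLC38 amino acid carriers 0 of 11. Among the transport lists, organic anion and cation transport had 15 of 25 called (median 1.66, log2). Sodium, potassium, chloride and magnesium transport had 14 of 23 (6.03), acid and base transport 10 of 19 (1.78), and water and urea transport 5 of 9 (2.23), or 3 of 9 without kidney WT 2. The other 3 transport lists had fewer, with amino acid and peptide transport 4 of 21 (-0.55), glucose and fructose transport 2 of 10 (-1.39), and phosphate, sulfate and dicarboxylate transport 3 of 9 (-1.56).

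Glucose carriers divided by member. Slc5a2, the glucose cotransporter SGLT2 that gliflozins block, was at 179, 15.8, 105 and 86.1 RPKM, 1233-fold above spleen and, without spleen WT 2 and KO 1, 3777-fold above heart. Slc5a1 (SGLT1) was at 13.9, 33.1, 26.8 and 30.9 RPKM in kidney and 691 in small intestine. WT 2 was the lowest library for Slc5a2 and the highest for Slc5a1. Slc5a10, a mannose and fructose cotransporter, was at 22.3 ± 9.09 RPKM, 150.1-fold above small intestine. Slc2a3, the glucose carrier GLUT3, was at 0.115 ± 0.0284 RPKM in kidney and 4.89 in spleen. Slc5a2 and Slc5a10 share 20.6 and 16.6% of their exonic bases with BC017158 and Fam83g on the opposite strand.

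Phosphate carriers divided likewise. Slc34a3 was at 37.4, 15.7, 28.7 and 22.8 RPKM, 219-fold above small intestine, at least 1017-fold above any organ without small intestine WT 1 and KO 1 and 118-fold without WT 2 and KO 2, and was kidney-restricted like Slc34a1. Slc34a2, the intestinal member of the family, was at 0.5003 ± 0.106 RPKM in kidney and 35.2 (79.7, 0.0158, 61.02 and 0.263) in small intestine, and Slc20a2, a broadly expressed phosphate carrier, at 3.902 ± 0.462 against 22.5 in heart. Slc13a3, a dicarboxylate cotransporter, was at 75.8, 76.7, 103 and 54.9 RPKM, 20.6-fold above liver. Among amino acid carriers, Slc6a20b was at 23.3, 23.1, 26.8 and 26.99 RPKM, 48.9-fold above small intestine. The peptide carrier Slc15a1 (PEPT1) was at 0.0898 ± 0.0472 RPKM in kidney and 69.9 in small intestine, and Slc36a2, a proton-coupled glycine and proline carrier, at 0.208 ± 0.0961 against 8.24 in heart.

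Among organic ion carriers, the urate exchanger Slc22a12 (URAT1) was at 146, 63.04, 206 and 127 RPKM, 448-fold above spleen and, without spleen WT 2 and KO 1, 717-fold above spleen. Of its exonic bases 30.1% are shared with Nrxn2 on the opposite strand. Slc22a18 was at 103, 172, 208 and 142 RPKM, 3.16-fold above small intestine (adjusted p = 0.0186), and lost its call without small intestine WT 1 and KO 1 and with either genotype alone. Slco1a1, an organic anion transporter, was at 0.0483 ± 0.0256 RPKM in kidney and 119 in liver. Slc22a19, Slc22a28, Slc22a29 and Slc22a30 are close copies, so reads may be split between them and their values are uncertain.

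Among ion carriers, Kcnj16, a potassium channel subunit, was at 148, 311, 232 and 224 RPKM, 65.03-fold above spleen. The potassium-chloride cotransporter Slc12a7 was not called, with 6.001 ± 3.43 RPKM in kidney against 14.5 in small intestine. The bicarbonate carrier Slc4a4 (NBCe1) was at 79.5, 116, 80.9 and 81 RPKM, 4.52-fold above small intestine. The membrane carbonic anhydrase Car12 was at 33.6, 36.3, 39.4 and 40.6 RPKM, 18.3-fold above small intestine, 135-fold without small intestine WT 1 and KO 1 and 9.84-fold without WT 2 and KO 2 (adjusted p = 0.0162). Car12 lost its call with either genotype alone. The anion exchanger Slc26a6 and the bicarbonate cotransporter Slc4a7 were at 2.17 ± 0.405 and 1.16 ± 0.104 RPKM in kidney against 84.9 and 55.6 (4.25, 141, 6.72 and 70.8) in small intestine.

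Among channels for water and urea, Aqp4 was at 6.202, 17.1, 12.1 and 21.3 RPKM, 4.699-fold above heart (adjusted p = 0.0365), and lost its call without kidney WT 2, kidney KO 2, heart WT 2 or heart KO 1. Aqp6, of intercalated cell vesicles, was at 10.3, 2.02, 16.3 and 6.14 RPKM, 535-fold above heart, and was not called by DESeq2. Aqp7, which also carries glycerol, was at 6.54 ± 0.5196 RPKM in kidney and 20.9 in small intestine, and the urea carrier Slc14a1 at 0.872 ± 0.276 against 13.4 in spleen. Of 19 claudins tested, Cldn8, Cldn10, Cldn16 and Cldn19 were called higher, and all 4 were kidney-restricted. These were 21.1% of the family, beside 4.11% of all genes tested, and the median of the family was -1.84 (log2), beside -1.22.

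In the gluconeogenesis, fructose and ammonia list 0 of 9 genes were called higher by edgeR, beside 4.11% of all genes tested. The median of the list was -0.81 (log2), beside -1.22 over all genes tested, and liver was the nearest organ for 8 of the 9. Glud1 (glutamate dehydrogenase) was at 109, 184, 150.1 and 112 RPKM in kidney and 508 in liver, and Pklr, a pyruvate kinase, at 5.46 ± 1.89 against 65.4. In the amino acid oxidation list 3 of 18 were called (-0.78), and liver was the nearest organ for 16 of the 18. Hao2, a hydroxyacid oxidase of peroxisomes, was at 382, 912, 634 and 745 RPKM, 16.9-fold above liver (adjusted p = 0.0846), and Dao, D-amino acid oxidase, at 38.3, 39.1, 53.6 and 39.9 RPKM, 6.46-fold above small intestine, 3.63-fold without small intestine WT 1 and KO 1 and 29.2-fold without WT 2 and KO 2 (adjusted p = 0.0754). Hao2 lost its call in 15 and Dao in 17 of 36 alternatives, among them without any single kidney library. Without kidney WT 2 the list held 1 called gene. Bhmt and Hpd, of homocysteine and tyrosine metabolism, were at 4.68 ± 1.06 and 59 ± 19.2 RPKM in kidney and 630 and 1216 in liver.

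The brush border peptidase and glutathione list had 2 of 16 called, beside 4.11% of all genes tested. The median of the list was -3.02 (log2), beside -1.22 over all genes tested, and small intestine was the nearest organ for 14 of the 16. Folh1, a glutamate carboxypeptidase, was at 52.4, 119.8, 65.1 and 78.4 RPKM, 485-fold above spleen. Acy3, an aminoacylase, was at 78.5, 117, 190.5 and 162 RPKM, 5.01-fold above liver. The call of Acy3 was lost in 8 of 36 alternatives, among them without kidney WT 2, kidney KO 1 or any single liver library. Naaladl1, a relative of Folh1, was at 0.359 ± 0.279 RPKM in kidney and 442 (665, 24.4, 1037 and 43) in small intestine, and Anpep, aminopeptidase N, at 11.7 ± 4.72 against 507.

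In the creatine, arginine and polyamine list, 2 of 9 were called (-1.47), beside 4.11% (-1.22) for all genes tested. Besides Gatm this was Odc1, ornithine decarboxylase of polyamine synthesis, at 117, 138, 145 and 128 RPKM, 2.06-fold above spleen, which lost its call without kidney WT 2, with library totals, with limma and with KO libraries only. Gamt, which completes the creatine synthesis that Gatm begins, was at 5.995 ± 0.798 RPKM in kidney and 122 in liver, and Agmat, agmatinase, at 1.56 ± 0.278 against 148. Of the vitamin D and steroid list 3 of 8 were called (-1.63). Cyp27b1, which activates vitamin D, was at 2.12, 3.97, 3.86 and 3.84 RPKM, 26.4-fold above heart (40.2-fold without heart WT 1), and Cyp24a1, which inactivates it, at 38.9, 19.2, 12.7 and 16.1 RPKM, 851-fold above spleen and, without spleen WT 2 and KO 1, at least 2373-fold higher than in any other organ. Its 16 spleen counts all came from KO 1, and DESeq2 did not call it. Hsd11b2, which shields the mineralocorticoid receptor from glucocorticoid, was at 31.4, 5.11, 42.6 and 10.9 RPKM, 15.7-fold above small intestine, 82.8-fold without small intestine WT 1 and KO 1 and 8.67-fold without WT 2 and KO 2 (adjusted p = 0.0389), lowest in WT 2. It lost its call in 6 of 36 alternatives, among them those without kidney WT 1, kidney KO 1, small intestine WT 2 or small intestine KO 2. Its relative Hsd11b1 was at 23.9 ± 10.4 RPKM in kidney and 356 in liver, and Cyp2r1, a vitamin D hydroxylase, at 1.24 ± 0.251 against 20.9.

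Among 91 cytochrome P450 genes tested, 8 (8.79%) were called higher and 0 lower, beside 4.11% and 0.665% of all genes tested, and the median of the family was -5.21 (log2), beside -1.22. Cyp2j11 was the most abundant of the 8, at 148, 274, 161 and 173 RPKM, 4014-fold above small intestine, and has close copies next to it. Acsm2, a medium-chain acyl-CoA synthetase, was the called gene of the 1 of 6 in its list, at 220.4, 374, 239.5 and 276 RPKM, 606-fold above liver. Its relatives Acsm3 and Acsm5 were at 0.905 ± 0.397 and 24.5 ± 2.77 RPKM in kidney and 20.1 and 40.3 in liver. In the inositol and sorbitol list 2 of 6 were called, Miox and the inositol carrier Slc5a3. Slc5a3 was at 41.1, 44.2, 47.7 and 57.3 RPKM, 20.2-fold above liver (adjusted p = 6.47e-08). Akr1b3 (aldose reductase) was at 14.7 ± 8.24 RPKM in kidney and 53.3 in heart, and Impa2, an inositol monophosphatase, at 1.48 ± 0.375 against 3.33.

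**Figure D5:**
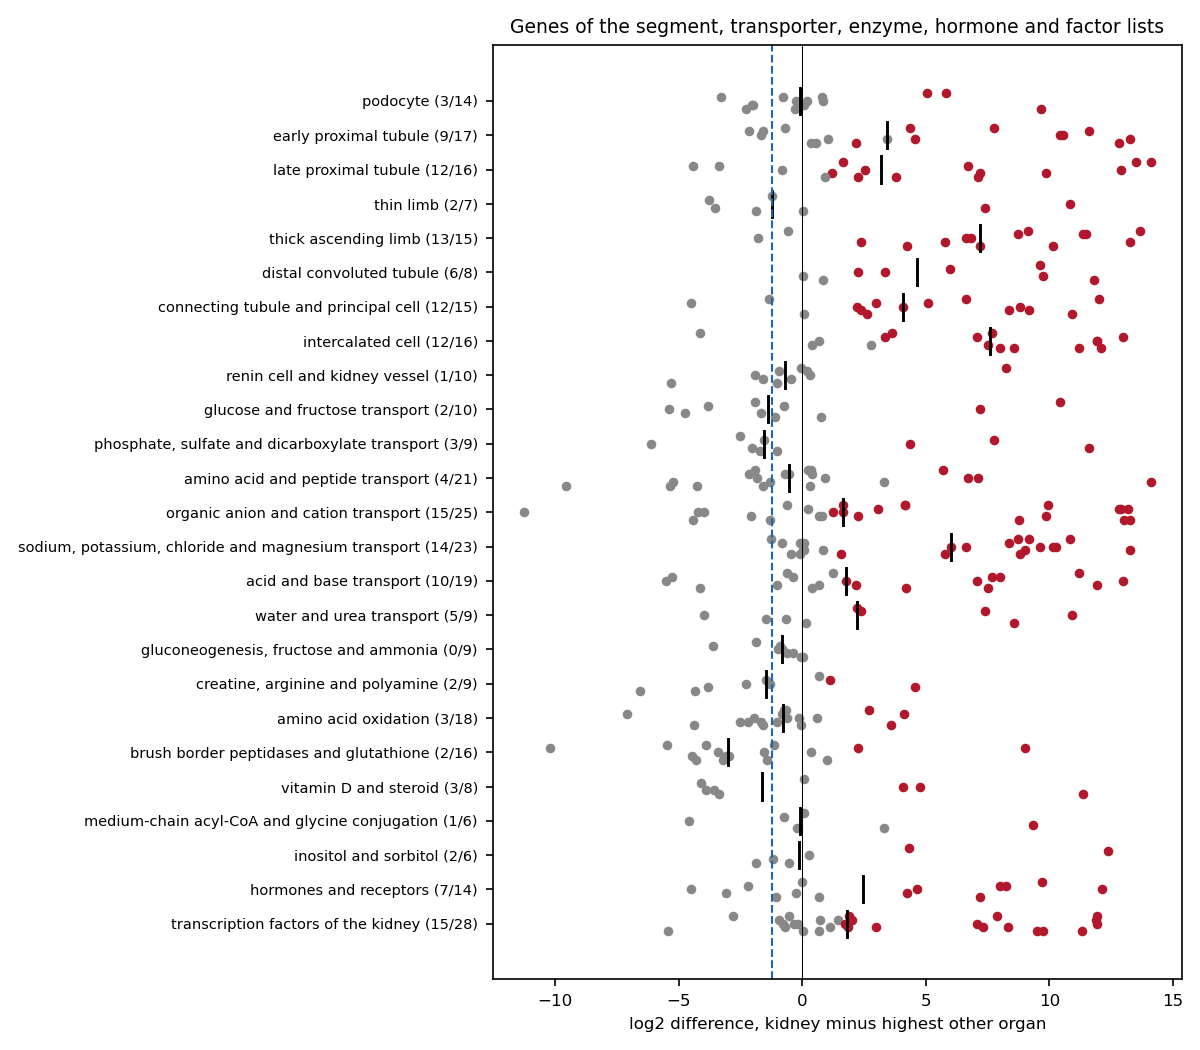
Difference (log2) between kidney and the highest other organ for each tested gene of 25 lists, with genes called higher in red, others in grey, and the median of a list as a black bar. The dashed line is the median of all 23159 genes (-1.22), and brackets give called higher over tested genes. The intercalated cell and thick ascending limb lists have medians of 7.59 and 7.21, and the gluconeogenesis list has no red point.

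Of the hormones and receptors, 7 of 14 tested genes were called, beside 4.11% of all genes tested. The median of the list was 2.46 (log2), beside -1.22 over all genes tested. Pth1r, the parathyroid hormone receptor, was at 98.2, 73.7, 131 and 88.2 RPKM, 24.9-fold above liver (adjusted p = 6.28e-07). Egf, epidermal growth factor, was at 65.7, 89.7, 96.8 and 102 RPKM, 149-fold above heart. Kl (klotho), the co-receptor of the phosphate hormone FGF23, was at 41.9, 54, 60.1 and 55.99 RPKM, 2086-fold above spleen. None of the 3 genes had kidney values that overlapped those of another organ. In 5.54% of all genes tested every kidney library lay above every library of the other organs. Avpr1a, a vasopressin receptor, was at 2.06 ± 0.685 RPKM in kidney and 17.5 in liver. Epo (erythropoietin) did not pass the filter, with 1, 2, 2 and 4 counts in the kidney libraries.

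Of 28 transcription factors of the kidney, 15 were called higher, 10 of them kidney-restricted, beside 4.11% called of all genes tested. The median of the list was 1.81 (log2), beside -1.22 over all genes tested. Hoxd8 was the most abundant called factor, at 49.4, 39.95, 54.8 and 45.5 RPKM, 137-fold above small intestine, 229-fold above heart without small intestine WT 1 and KO 1 and 80.02-fold without WT 2 and KO 2. Tfcp2l1, a factor of the collecting duct, was at 36.6, 21.1, 38.6 and 27.9 RPKM, 7.94-fold above small intestine, 18.9-fold without small intestine WT 1 and KO 1 and 5.02-fold without WT 2 and KO 2. Emx1, a homeobox factor, was at 11.9, 3.83, 10.9 and 9.78 RPKM, 419.7-fold above heart, and was not called by DESeq2. All 3 had their lowest value in WT 2. Hnf4g was at 2.42 ± 0.931 RPKM in kidney and 102 in small intestine, and Osr2 at 1.91 ± 1.25 against 14.1 (18.9, 0, 37.2 and 0). Osr2 was called without small intestine WT 1 and KO 1.

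Of the 154 genes lower in kidney than in each other organ, 118 had every kidney library below all 16 others, a pattern of 1.07% of all genes tested. The lowest other organ was liver for 54 genes, heart for 43, small intestine for 31 and spleen for 26. The 6 with the highest level in that organ were AW112010, Kpna2, Psmb10, Slc16a1, Plbd1 and Gpcpd1. AW112010, a transcript known from interferon responses, was at 8.28, 24.04, 10.4 and 12.9 RPKM in kidney and 52.04 in heart, a difference of -1.92 ± 0.35 (log2, adjusted p = 0.00327). Kpna2, a nuclear import receptor, was at 13.9, 18.8, 18.1 and 16.2 RPKM and at 38.3 in small intestine. Psmb10, a subunit of the immunoproteasome, was at 5.75, 11.7, 11.4 and 8.68 RPKM and at 29.4 in liver. Kpna2 and Psmb10 lost their calls with library totals in place of TMM, with limma and with either genotype alone. Gpcpd1 lost its call in 9 of 36 alternatives, among them the same 4 and those without small intestine WT 2, small intestine KO 2, kidney KO 1 or kidney KO 2. Slc16a1, the lactate and pyruvate carrier MCT1, was at 5.04, 8.05, 6.12 and 6.23 RPKM and at 26.5 in liver, a difference of -2.06 ± 0.24 (adjusted p = 9.03e-05). Plbd1 and Gpcpd1 were at 6.21 ± 1.71 and 7.97 ± 1.42 RPKM and at 24.8 and 19.9 in small intestine. Every kidney library lay below all others for 5 of these 6 genes, and for Gpcpd1 the groups overlapped. The count rose to 414 without kidney WT 1, 123 of them shared with the 154, and fell to 88 with library totals in place of TMM.

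Markers of other cells were measured in the kidney libraries with 11 lists. Of the pancreas list, 4 of 5 genes were at 0 in each kidney library and Ins2 reached 0.2196 RPKM, and of the adrenal list 6 of 9 were at 0 in each and Star reached 1.98. The cardiomyocyte genes, with at most 1 of 6 at 0, summed to 0.59 to 1.15 RPKM, and Tnni3, at 0.408 ± 0.138 RPKM in kidney, was at 5500 in heart. Hepatocyte genes summed to 46.2, 140.0, 115.9 and 89.0 RPKM, led by Ttr and with at most 1 of 8 at 0, against 80320 RPKM or more in the liver libraries. Enterocyte genes summed to 3.26 to 12.3 RPKM, led by Lgals4, with 1 to 4 of 6 at 0. Lymphocyte genes summed to 6.30 to 11.3 RPKM, led by Ighm, smooth muscle genes to 6.82 to 17.99, led by Acta2, and macrophage genes to 23.8 to 69.4, led by C1qb or C1qa. Red cell genes summed to 1073 to 2065 RPKM, led by Hbb-bs. No gene of the lymphocyte, smooth muscle, macrophage and red cell lists was at 0 in a kidney library. The hepatocyte, lymphocyte, macrophage, smooth muscle and red cell sums were all lowest in WT 1.

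Urothelium genes were all present and summed to 7.68, 22.4, 11.9 and 13.6 RPKM, with Upk3a, a uroplakin, at 1.95, 8.97, 3.67 and 5.22. Of the 6 genes, 1 was called higher in kidney, beside 4.11% of all genes tested, and the median difference was 1.82 (log2), beside -1.22. The called gene was Krt5, a keratin of basal cells, at 0.59, 0.942, 1.12 and 0.942 RPKM (adjusted p = 0.0212), while 0 genes of the other 10 lists were called higher. Upk3a was called in 4 of 36 alternatives, namely without small intestine KO 1, without small intestine WT 1 and KO 1 (log2 of 8.70, adjusted p = 0.00557), without the filter on low counts and with limma. Adipocyte genes summed to 37.1, 47.6, 32.7 and 0.554 RPKM, and Cfd (adipsin) was at 25.8, 29.9, 24.98 and 0.387. Kidney KO 2 was thus far below the other kidney libraries in adipocyte genes, with 3 of 6 at 0 against at most 1 in each of the others. Whether these cells had a part in any difference between kidney and another organ was not tested.

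The kidney differences were also compared between the genotypes. No gene passed edgeR's test of the interaction, that is, of the KO minus WT difference in kidney minus its mean over the other 4 organs (0% of 23159 genes, smallest adjusted p = 1). At an unadjusted p under 0.05 there were 341 genes, fewer than the 1158 that are 5% of those tested. DESeq2 called 2, limma 15, and edgeR without the filter on low counts 56. Without kidney WT 1, which left WT 2 as the only WT kidney library, 831 genes passed, and without any other single library 0. Among the libraries of 1 genotype, 315 genes were higher in WT kidney than in each other WT organ, all shared with the 951, and 592 in KO kidney, of which 585 were shared.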

How the data were processed

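Gene-level RNA-seq of 20 libraries was analysed. Per the labels and the methods of the study, the authors trimmed reads with cutadapt, aligned them with HISAT2 2.1.0 (mm10) and counted reads over Ensembl GRCm38.102 genes with featureCounts 2.0.1. The authors deposited raw counts, with the merged exon length of each gene. The methods describe reverse-stranded counting of proper pairs, while the command stored in the file header carries no strand or pair option, so reads of genes that overlap on opposite strands may not have been told apart. Beside the overlaps given with the results, shares of 10% or more of the exonic bases were 39.7% for Acsm3, 27.2% for Akr1b7, 23.6% for Impa2, 22% for Pklr, 21.1% for Slc6a20b, 19.5% for Umod, 18.9% for Napsa, 17% for Cryab and 11.7% for Slc34a1. All 20 count columns matched a sample.

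Counts were tested with edgeR 4.0.16 (R 4.3.3): filterByExpr over the 10 groups of organ and genotype, TMM scaling and a robust quasi-likelihood fit, with each kidney contrast averaged over genotypes. The largest p of the 4 contrasts was adjusted by Benjamini-Hochberg over the 23159 genes tested, and a call required an adjusted p under 0.1 and a fold over 2 in all 4. A log2 difference is given with its SE from the nearest organ of the fit. RPKM was computed from counts, TMM-scaled library sizes and merged exon length, ratios compare means of 4 libraries, and a mean is given ± SD. The steps were tested on simulated data. Depth bounds low values, since 3 counts over 4 libraries of an organ set the floor, and this covers counting error only.

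The genes named were Kap, Umod and Slc34a1, the 10 kidney-restricted genes with the highest kidney mean, the 5 with the largest ratio, in each list of segments, transporters, enzymes, hormones or factors up to 4 called members with the highest kidney RPKM and up to 2 members lowest against the highest other organ, the 6 lower genes with the highest RPKM in the nearest organ, and the leading gene of each list of other cells. Cldn8, Cldn16, Cldn19, Cyp2j11, Elf5, Atp11a, Bcat1, Epo, Krt5, Nsun6 and the genes at the limits of the definition were chosen after their values were seen. Some genes that this rule names are not reported here. The members and lists were chosen with earlier results of these data known.

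Alternatives were DESeq2 1.42.0, RLE, upper-quartile or no scaling beyond library totals, no filter, at least 10 counts in every library of an organ, an adjusted p under 0.05, no fold threshold, an additive fit, 1 genotype alone, limma 3.58.1 on log2(TPM + 0.1), a replicate block, and each library left out. Leaving out spleen WT 2 and spleen KO 1 together, or both small intestine libraries of one number, was chosen after seeing the data.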

Additional observations from a re-analysis of the deposited data

Results flagged for a closer look

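In 13 of the 134 genes examined, 1 kidney library stood apart from the other 3 by more than Dixon's 95% limit for 4 values. For normal values chance alone passes this limit in about 1 in 20. The values here were RPKM, and the genes share the trends of their libraries, so 13 of 134 cannot be set against that rate. Another 2 genes were left out for counts under 40. Kidney WT 2 was high for Cltrn (2390 RPKM, others 1430 to 1570), Akr1c21 (2020 RPKM, others 1090 to 1160), Slc22a22 (87.3 RPKM, others 45.6 to 49.1), Slc4a4 (116 RPKM, others 79.5 to 81), Slc7a13 (6.03 RPKM, others 0.323 to 0.7) and Bhmt (6.27 RPKM, others 4.08 to 4.29), and low for Slc6a18 (125 RPKM, others 194 to 208). Kidney WT 1 was low for Gpx3 (7030 RPKM, others 11400 to 12200), Cryab (27.8 RPKM, others 95.6 to 106) and Cyp27b1 (2.12 RPKM, others 3.84 to 3.97), and high for Slc6a19 (66.3 RPKM, others 39.5 to 43). Kidney KO 1 was high for Dao, at 53.6 RPKM against 38.3 to 39.8 in the others. Kidney KO 2 was low for the adipocyte gene Cfd, at 0.387 RPKM against 25 to 29.8 in the others. The part of tissue composition or GC content in these values was not tested.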

How the results depend on the processing

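The 951 genes higher in kidney became 315 with WT libraries only, 592 with KO libraries only, 794 with DESeq2, 1074 with library totals, 1095 without the filter on low counts and 1243 with limma (874 shared). The 154 lower genes became 88 with library totals alone, 268 without the filter on low counts, 31 with WT and 78 with KO libraries only, and 70 with limma. Those lower than the mean of the other organs, 2456, became 3967 without the fold threshold and 3955 with limma. The interaction with genotype, 0 genes, became 2 with DESeq2 (Igfbp6 and Saa1, named after their values were seen), 56 without the filter and 15 with limma. It has no value in the additive fit or with 1 genotype. The 399 kidney-restricted genes became 229 with WT libraries only. The causes were not tested, and the single-genotype fits also held fewer libraries. Leaving out each library in turn gave 737 to 938 higher and 105 to 414 lower genes, 4415 to 5071 and 2163 to 3311 against the mean, 0 to 831 in the interaction and 368 to 404 kidney-restricted. Both 414 and 831 came without kidney WT 1. Without small intestine WT 1 and KO 1 there were 195 lower and 417 kidney-restricted genes, and without WT 2 and KO 2 there were 173 and 406. Without spleen WT 2 and spleen KO 1 there were 111 lower and 381 kidney-restricted genes. Higher genes were 86.1% of those called higher or lower than each organ, but 92.4% with library totals, 94.7% with limma and 67.8% without kidney WT 1. Library totals moved the median over all genes by 0.219 (log2) from TMM. The replicate block gave 915 higher, 157 lower, 4661 and 2473 against the mean, 0 in the interaction and 395 kidney-restricted genes. Same-numbered libraries deviated together in kidney WT and KO (correlation 0.314). Across the 45 pairs of groups the correlations had no common sign (median 0.0476, lowest -0.493, highest 0.557, over 0.1 in 18). Such a median over different organs cannot settle pairing within an organ. In small intestine 518 genes (3.67%) split by number. The main fit took the libraries of a group as replicates in every organ and used no pairs. Of 77 named genes called, over 36 alternatives, 2624 of 2772 results kept their call, 148 lost it and 0 reversed. Fewer counts limit what can be told of genes near the floor.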
